A study of Homo sapiens with 9 samples.

Results

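The 10 genes described here are *NFE2L2*, which encodes the transcription factor NRF2, *KEAP1*, which encodes its inhibitor, and 8 antioxidant genes known as NRF2 targets: *NQO1*, *HMOX1*, *GCLC*, *GCLM*, *GSR*, *TXNRD1*, *SRXN1* and *OSGIN1*. They were chosen by symbol and found in the count table through their NCBI gene identifiers, and they are 10 of the 28395 genes listed. RNA was sequenced from 3 human kidney lines kept in Plasmax, a medium modelled on the nutrients of human serum, with 3 libraries per line and no treatment. HK2 stood for normal proximal tubule, 786-O for clear cell renal cell carcinoma (ccRCC) and 786-M1A for a metastatic line derived from that same 786-O. Each condition was therefore a single line, so that a difference between normal and cancer cells cannot be told apart from a difference between HK2 and the 786-O lineage. The study's methods describe replicate dishes of each line, plated on the day before RNA was extracted. Each library was taken here as its own culture. Every p-value thus measures the spread between such cultures of a line, and not that between independent experiments.

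NRF2 is made continuously and kept scarce, because KEAP1 holds it for ubiquitination by a CUL3 ligase and degradation by the proteasome. Oxidants and electrophiles modify cysteines of KEAP1, NRF2 then escapes, pairs with a small MAF protein and binds antioxidant response elements near its targets. The targets make and recycle glutathione, reduce thioredoxin, quinones and peroxiredoxins, and break down heme. The amount of *NFE2L2* mRNA is thus no measure of NRF2 protein, which was not measured in these libraries.

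Between 30212291 and 45362428 reads were counted on genes in a library, and levels are given as CPM, which sets the count against the library total after correction by the TMM factors of edgeR. These factors lay between 0.967 and 1.03. Lines were compared by the quasi-likelihood test of edgeR on the 12695 genes that averaged 50 counts or more, and all 10 genes were among them. P-values were adjusted over all genes tested by the Benjamini-Hochberg method and called at 0.05. Libraries of a line correlated at 0.997 to 0.998 over genes, and each of the 9 libraries was closest to its own line. The epithelial kidney factor *PAX8* was present at means of 167, 165 and 182 CPM in the HK2, 786-O and 786-M1A lines, but 8 of the 10 proximal tubule markers were too low to be tested, and *LRP2* and *SLC22A6* had 0 counts in all 9 libraries. *ANPEP*, the other marker tested, had means of 1.75, 111.9 and 19.8 CPM in that order of lines. The ccRCC marker *CA9* had at most 3 counts in any library, while *VEGFA* had means of 19.4, 163 and 330.2 CPM in the same order. Of the listed leukocyte markers, *PTPRC* and *CD3E* had 0 counts throughout and *LYZ* at most 3. In contrast, *CD68*, a lysosomal protein of macrophages, had means of 51.0, 27.0 and 36.0 CPM. The 4 endothelial markers together reached at most 1.11 CPM. The 4 fibroblast markers summed to 54.4 to 63.4 CPM in HK2, to 264 to 333 CPM in 786-O, nearly all of it *COL1A1*, and to 297 to 301 CPM in 786-M1A, mostly *PDGFRB*. The part of these markers in the results was not tested.

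In the genome (GRCh38, RefSeq gene spans), the factor and its inhibitor lie at chr2:177230303-177264727 (*NFE2L2*, minus strand) and chr19:10486125-10503356 (*KEAP1*, minus strand). The glutathione genes lie at chr6:53497341-53545101 (*GCLC*) and chr1:93885199-93909430 (*GCLM*), both on the minus strand. *NQO1* is at chr16:69709401-69726560 on the minus strand and *OSGIN1* at chr16:83953240-83966332 on the plus strand. *HMOX1* is at chr22:35381096-35394207 and *TXNRD1* at chr12:104215779-104350307, both on the plus strand, and *SRXN1* is at chr20:646615-653200 on the minus strand.

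As NRF2 targets are known for antioxidant response elements, the DNA before their start sites was searched for TGACNNNGC, the core letters of the antioxidant response element, on both strands (GCNNNGTCA on the opposite strand). RefSeq promoter entries matched 8 of the 10 genes, the exceptions being *HMOX1* and *GSR*. Within the 1000 bases before an annotated start, 6 of these 8 genes held the letters in 1 or more windows. Of all 27305 genes with a promoter entry 35.5% did so, and of the 10191 tested genes with such an entry 39.9%. In the narrower window of 250 bases before to 50 after, 3 of the 8 genes held them. The shares there were 16.1% of all genes with an entry and 19.3% of those tested. These are matches of letters and not shown sites, and they were not tied to any difference between lines. The sequences below show the match of each of the 6 genes, 5′ to 3′ on the strand of the gene, with 10 bases on each side and the matching letters in capitals.
GCLM: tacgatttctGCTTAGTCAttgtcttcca
GCLC: acaggtcattGCTCTGTCAacacatattt
NQO1: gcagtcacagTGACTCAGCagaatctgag
TXNRD1, upstream start: acacgggctaTGACTTCGCtgttgtcacc
TXNRD1, downstream start: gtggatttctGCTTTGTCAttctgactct
OSGIN1: agacaatctgTGACTTGGCcccagttttc
KEAP1, first match: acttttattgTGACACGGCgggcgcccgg
KEAP1, second match: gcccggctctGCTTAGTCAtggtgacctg

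The *GCLM* stretch (chr1:93909446-93909474) begins its match 34 bases before the start and is identical in its capital letters to the second *KEAP1* match (chr19:10502784-10502812), which lies 31 bases before the downstream of the 2 annotated *KEAP1* starts. The first *KEAP1* match (chr19:10502807-10502835) is 54 bases before that start. The *NQO1* stretch (chr16:69726997-69727025) is 455 bases before the start, and it alone among these also holds the AP-1 letters TGACTCA, which overlap the match. The *TXNRD1* matches are 99 bases before the upstream start (chr12:104215670-104215698) and 102 bases before the downstream start (chr12:104286920-104286948), and a further match begins 8 bases before the upstream start. The *GCLC* stretch (chr6:53545953-53545981) and the *OSGIN1* stretch (chr16:83952673-83952701) are more distant, at 870 and 557 bases. No match was found from 1000 bases before to 50 bases after the annotated starts of *NFE2L2* or *SRXN1*.

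Compared with HK2, the most abundant of the 10 transcripts, *TXNRD1*, fell in both cancer lines, together with *GSR* and *GCLC*, while *KEAP1* and *OSGIN1* rose and *NFE2L2* fell by a smaller amount. In 786-O against HK2, 2 genes were higher (*KEAP1*, *OSGIN1*), 6 were lower (*NFE2L2*, *HMOX1*, *GCLC*, *TXNRD1*, *SRXN1*, *GSR*) and 2 did not pass the test (*NQO1*, *GCLM*). Of all genes tested, 41.6% were called higher and 42.6% lower in this comparison, so that a call alone was common. *TXNRD1* was the only one of the 10 with a called difference of at least 2-fold, it was lower, and no gene was higher by that size, where 13.1% and 9.18% of all genes were lower and higher. In 786-M1A against HK2, 5 genes were higher (*KEAP1*, *NQO1*, *HMOX1*, *GCLM*, *OSGIN1*) and 5 were lower (*NFE2L2*, *GCLC*, *TXNRD1*, *SRXN1*, *GSR*), where 41.6% of all genes were called higher and 43.3% lower. None of these differences reached 2-fold, a size that 10.4% of all genes reached upward and 15% downward. Both comparisons use the same HK2 libraries.

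Between the related cancer lines, 4 of the 10 genes were higher in 786-M1A than in 786-O (*NQO1*, *HMOX1*, *TXNRD1*, *OSGIN1*), *NFE2L2* was lower, and 5 did not pass the test (*KEAP1*, *GCLC*, *GCLM*, *SRXN1*, *GSR*). Of all genes, 27.9% were called higher and 28% lower. No difference of the 10 genes reached 2-fold, where 2.03% of all genes were higher and 4.55% lower by at least that. The median absolute log2 fold change of the 10 genes was 0.27 in 786-O against HK2, 0.32 in 786-M1A against HK2 and 0.08 in 786-M1A against 786-O, and over all genes tested it was 0.47, 0.51 and 0.17. The signed medians of the 10 genes were -0.16, -0.03 and 0.03, beside -0.01, -0.02 and 0.00 for all genes.

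**Figure D1:**
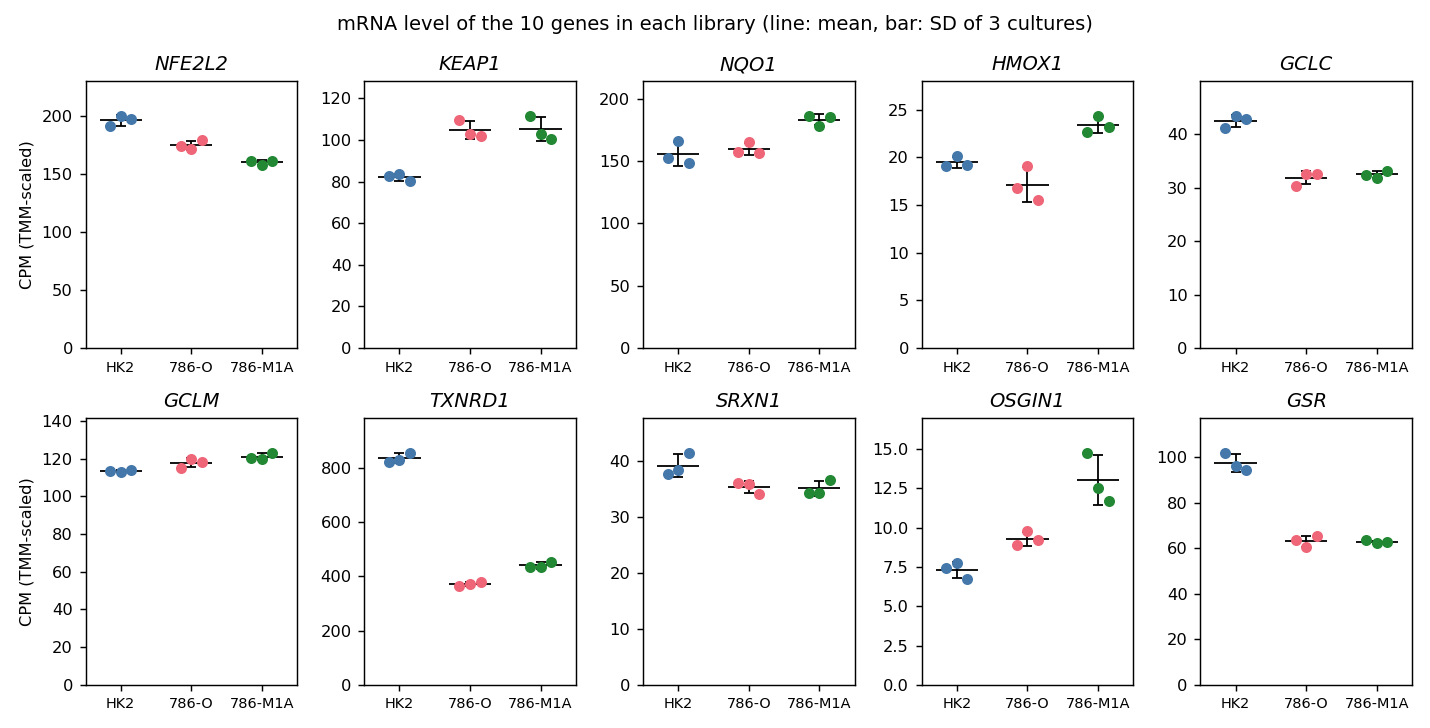
Levels of the 10 genes in TMM-scaled CPM, a panel per gene with its own vertical axis from 0, a point per library, a line at the mean of 3 cultures and a bar of 1 SD. *TXNRD1* and *GSR* were highest in the 3 HK2 cultures and *OSGIN1* and *HMOX1* in the 3 cultures of 786-M1A.

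*NFE2L2* mRNA was at 191, 199.7 and 197 CPM in the HK2 libraries, at 173, 171 and 179 CPM in 786-O and at 161, 157 and 161 CPM in 786-M1A. The lines did not overlap and the level stepped down from HK2 to 786-O to 786-M1A, with means of 196 ± 4.48, 174 ± 3.93 and 159.7 ± 2.06 CPM (SD, n = 3 each). The log2 fold change was -0.17 ± 0.036 (SE) in 786-O against HK2 (edgeR adjusted p = 1.79e-04) and -0.29 ± 0.036 in 786-M1A against HK2 (edgeR adjusted p = 1.11e-07). Between the cancer lines it was -0.13 ± 0.036 (edgeR adjusted p = 0.00476). These were small steps, of 1.12-fold and 1.23-fold against HK2 and 1.09-fold between the cancer lines. In GENCODE, long transcripts of *NFE2L2* share 3509 exonic bases with the antisense gene *HNRNPA3* and 11 with *AGPS*. The RefSeq spans do not overlap, and *HNRNPA3* and *AGPS* differed from HK2 by log2 fold changes of -0.11 and 0.18 in 786-O. On its own strand, *NFE2L2* shares 2037 exonic bases with a long noncoding RNA gene that has no symbol. That gene was not matched to the count table, and its part in the *NFE2L2* counts was not tested.

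*KEAP1*, the adaptor that brings NRF2 to its ligase, went the other way. It was at 82.6, 83.5 and 80.3 CPM in HK2, at 109.5, 103 and 102 CPM in 786-O and at 112, 103 and 101 CPM in 786-M1A. Every cancer library was above every HK2 library, and the cancer lines overlapped. The log2 fold change was 0.35 ± 0.044 in 786-O (edgeR adjusted p = 2.29e-07) and 0.35 ± 0.045 in 786-M1A (edgeR adjusted p = 1.95e-07), both about 1.28-fold. Between the cancer lines no difference was detected, with a log2 fold change of 0.00 and a 95% interval of -0.08 to 0.09 (edgeR adjusted p = 0.957).

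The ratio of *NFE2L2* to *KEAP1* reads within a library, which no scaling of the libraries can move, was 2.31 to 2.45 in HK2, 1.58 to 1.75 in 786-O and 1.44 to 1.60 in 786-M1A. On the log2 scale its means were 1.25 ± 0.043, 0.74 ± 0.074 and 0.61 ± 0.078 (SD, n = 3 each). The ratio was lower than in HK2 by 1.43-fold in 786-O and by 1.57-fold in 786-M1A, with no overlap (exact two-sided permutation p = 0.1 each, the smallest that 3 against 3 can give). The 2 cancer lines overlapped in this ratio, with a log2 difference of -0.13 (exact two-sided permutation p = 0.2).

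*NQO1* encodes a quinone reductase that is a standard readout of NRF2. It was at 153, 166 and 148 CPM in HK2, at 158, 165 and 157 CPM in 786-O, and at 186, 178 and 185 CPM in 786-M1A. HK2 and 786-O overlapped, while every 786-M1A library was above all the others. The log2 fold change in 786-O against HK2 was 0.04 with a 95% interval of -0.05 to 0.12 (edgeR adjusted p = 0.415). In 786-M1A it was 0.23 ± 0.042 against HK2 (edgeR adjusted p = 2.89e-05) and 0.20 ± 0.042 against 786-O (edgeR adjusted p = 4.63e-04).

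*HMOX1*, the inducible heme oxygenase, was likewise highest in 786-M1A. It was at 19.1, 20.2 and 19.2 CPM in HK2, at 16.8, 19.1 and 15.5 CPM in 786-O and at 22.7, 24.4 and 23.2 CPM in 786-M1A. All 786-M1A libraries were above the others, and 1 of the 786-O libraries lay at the level of HK2. The rise in 786-M1A was 1.37-fold against 786-O (log2 fold change 0.45 ± 0.065, edgeR adjusted p = 4.31e-06) and 1.20-fold against HK2 (0.26 ± 0.064, edgeR adjusted p = 7.40e-04). The difference of -0.19 ± 0.066 in 786-O against HK2 passed the test (edgeR adjusted p = 0.0121), but not without 786-O replicate 3 (log2 fold change -0.12, edgeR adjusted p = 0.111) and not with limma (-0.14, adjusted p = 0.0609).

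Glutathione is made in a rate-limiting step by glutamate-cysteine ligase, whose catalytic subunit is encoded by *GCLC* and whose modifier subunit by *GCLM*. *GCLC* was at 41.2, 43.4 and 42.8 CPM in HK2, at 30.4, 32.7 and 32.6 CPM in 786-O and at 32.4, 31.8 and 33.2 CPM in 786-M1A. Every cancer library was below every HK2 library and the cancer lines overlapped. *GCLC* was lower by 1.33-fold in 786-O (log2 fold change -0.42 ± 0.047, edgeR adjusted p = 3.45e-08) and by 1.31-fold in 786-M1A (-0.39 ± 0.047, edgeR adjusted p = 1.02e-07). Between the cancer lines the log2 fold change was 0.03, with a 95% interval of -0.07 to 0.12 (edgeR adjusted p = 0.656). In GENCODE, *GCLC* shares 529 exonic bases on the same strand with a long noncoding RNA gene that has no symbol. That gene was not matched to the count table, and its part in the *GCLC* counts was not tested.

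The levels of *GCLM* lay closer together. They were 113, 113 and 114 CPM in HK2, 115, 119.8 and 118 CPM in 786-O, and 120.2, 119.8 and 123 CPM in 786-M1A. The HK2 libraries were the 3 lowest, by a narrow margin. The log2 fold change of 0.06 ± 0.036 in 786-O did not pass the test of edgeR (adjusted p = 0.151), and passed that of limma (0.10, adjusted p = 0.00923). In 786-M1A *GCLM* was higher than in HK2 by 0.10 ± 0.036 (edgeR adjusted p = 0.0174), a call that was lost with upper-quartile scaling (0.05, edgeR adjusted p = 0.219). Between the cancer lines the log2 fold change was 0.04, with a 95% interval of -0.03 to 0.11 (edgeR adjusted p = 0.355).

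The mRNAs of the ligase subunits thus differed in their balance between HK2 and the cancer lines, while the subunit proteins were not measured in these libraries. From separate proteomics of these lines, the paper reports glutathione metabolism as an upregulated pathway in both cancer lines against HK2. That is a result for a pathway and gives no value for either subunit. *GCLC* had 0.364 to 0.386 reads for each *GCLM* read in HK2, 0.264 to 0.276 in 786-O and 0.265 to 0.270 in 786-M1A. The HK2, 786-O and 786-M1A lines had mean log2 ratios of -1.41 ± 0.041, -1.88 ± 0.032 and -1.90 ± 0.015 (SD, n = 3 each). It was lower by 1.39-fold in 786-O and by 1.40-fold in 786-M1A than in HK2, with no overlap (exact two-sided permutation p = 0.1 each). The cancer lines overlapped, with a log2 difference of -0.01 (exact two-sided permutation p = 0.5).

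**Figure D2:**
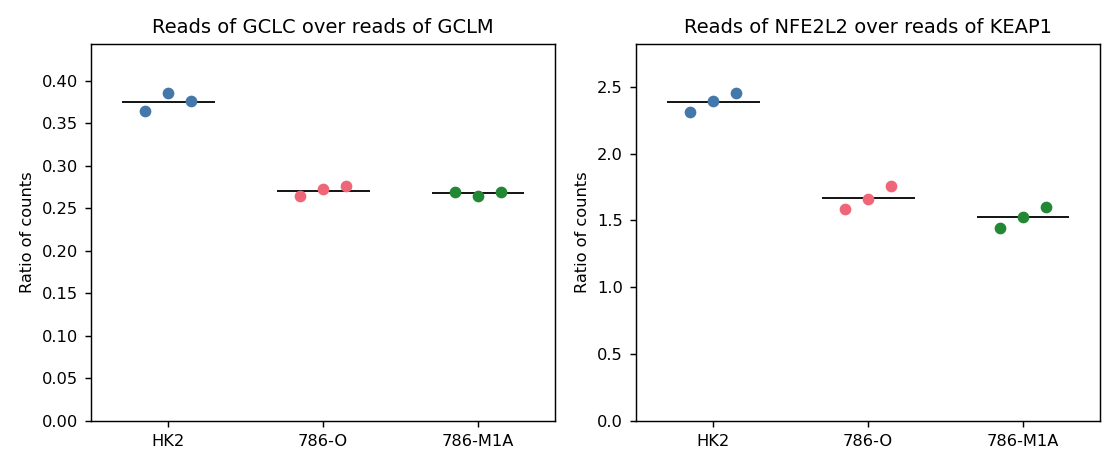
Ratio of read counts within each library for the ligase subunits *GCLC* and *GCLM* (left) and for *NFE2L2* and *KEAP1* (right), on linear axes from 0, with a point per library and a line at the mean of 3 cultures. All 6 cancer libraries lie below the 3 HK2 libraries in both ratios.

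*GSR*, which returns oxidized glutathione to its reduced form with NADPH (chr8:30678066-30727846, minus strand), was at 102, 96.1 and 94.5 CPM in HK2, at 63.5, 60.5 and 65.2 CPM in 786-O and at 63.4, 62.0 and 62.5 CPM in 786-M1A. The HK2 libraries stood well apart from the 6 cancer libraries, which overlapped between lines. The fall was 1.54-fold in 786-O (log2 fold change -0.63 ± 0.042, edgeR adjusted p = 7.64e-12) and 1.55-fold in 786-M1A (-0.64 ± 0.043, edgeR adjusted p = 5.69e-12). Between the cancer lines the log2 fold change was -0.01, with a 95% interval of -0.09 to 0.07 (edgeR adjusted p = 0.864).

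*TXNRD1*, the cytosolic selenoprotein that reduces thioredoxin, showed the largest difference of the 10 genes. It was at 823, 831 and 857 CPM in HK2, at 364, 372 and 380.05 CPM in 786-O and at 435, 433 and 455 CPM in 786-M1A. The lines did not overlap, and 786-M1A stood between 786-O and HK2. *TXNRD1* was lower than in HK2 by 2.25-fold in 786-O (log2 fold change -1.17 ± 0.035, edgeR adjusted p = 2.95e-18) and by 1.90-fold in 786-M1A (-0.92 ± 0.034, edgeR adjusted p = 1.61e-16). It was 1.19-fold higher in 786-M1A than in 786-O (0.25 ± 0.034, edgeR adjusted p = 2.97e-06).

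This single gene carried much of the reads of the group. The 10 genes together made up 0.161% to 0.165% of the counts in HK2 libraries, 0.107% to 0.110% in those of 786-O and 0.112% to 0.115% in those of 786-M1A. *TXNRD1* took 52.0% to 53.5% of their summed CPM in HK2, 33.8% to 34.8% in 786-O and 36.8% to 38.2% in 786-M1A. Without it, the sum of the other 9 genes came to 753 ± 13.2 (HK2), 713 ± 2.88 (786-O) and 736 ± 11.6 CPM (786-M1A) (SD, n = 3 each).

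*SRXN1* encodes sulfiredoxin, which repairs overoxidized peroxiredoxins. It was at 37.6, 38.3 and 41.4 CPM in HK2, at 36.0, 35.8 and 34.0 CPM in 786-O and at 34.3, 34.2 and 36.6 CPM in 786-M1A. The cancer libraries were all below those of HK2, by little. The log2 fold change was -0.15 ± 0.050 in 786-O (edgeR adjusted p = 0.00761) and -0.16 ± 0.050 in 786-M1A (edgeR adjusted p = 0.00531). Without HK2 replicate 3, the highest library, neither call held (log2 fold change -0.11, edgeR adjusted p = 0.0592 in 786-O, and -0.12, adjusted p = 0.0540 in 786-M1A), and the call in 786-O was also lost with limma (-0.10, adjusted p = 0.0684). Between the cancer lines the log2 fold change was -0.01, with a 95% interval of -0.11 to 0.09 (edgeR adjusted p = 0.898). In GENCODE, *SRXN1* shares 2292 of its 2528 exonic bases on the same strand with a protein-coding gene that has no symbol. That gene was not matched to the count table, and its part in the *SRXN1* counts was not tested.

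*OSGIN1*, an oxidative stress-induced growth inhibitor, was the lowest of the 10 transcripts by length and had the largest rise. It was at 7.41, 7.78 and 6.75 CPM in HK2, at 8.91, 9.78 and 9.22 CPM in 786-O and at 14.8, 12.5 and 11.7 CPM in 786-M1A. The lines did not overlap and stood in the order HK2, 786-O, 786-M1A. Against HK2 the log2 fold change was 0.35 ± 0.090 in 786-O (edgeR adjusted p = 0.00118) and 0.83 ± 0.087 in 786-M1A, or 1.78-fold (edgeR adjusted p = 1.05e-08). Against 786-O it was 0.48 ± 0.083 in 786-M1A, or 1.40-fold (edgeR adjusted p = 3.92e-05). In GENCODE, *OSGIN1* shares 457 exonic bases on the same strand with *MLYCD*, a gene of similar depth with 258 to 448 counts in a library. The RefSeq spans do not overlap, and *MLYCD* differed in the other direction, by -0.45 in 786-O and -0.38 in 786-M1A against HK2.

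**Figure D3:**
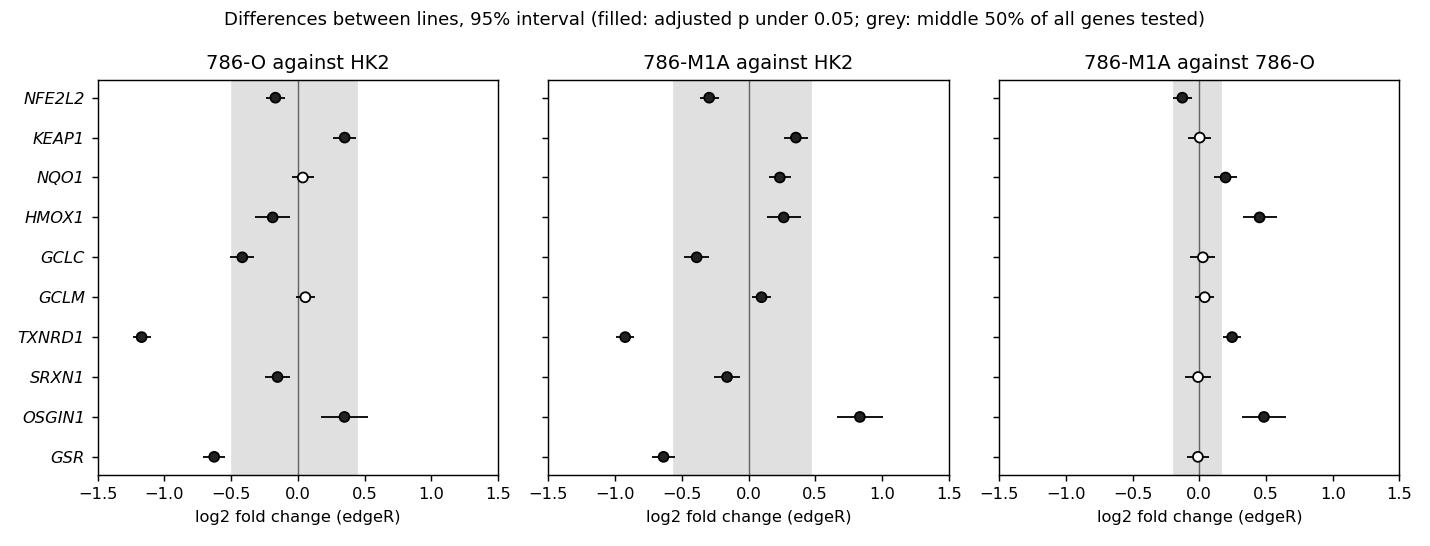
Log2 fold change of each gene from edgeR in the 3 comparisons, with its 95% interval as a line, filled points for an adjusted p under 0.05 and open points otherwise. The grey band is the middle 50% of the 12695 genes tested, from -0.50 to 0.44 (left), -0.56 to 0.47 (middle) and -0.19 to 0.16 (right), and it holds 8, 7 and 6 of the 10 genes.

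Per kilobase of the canonical transcript, which allows levels of different genes to be compared, *TXNRD1* was the highest of the 10 in every line, at 217, 96.4 and 114 CPM per kb in the HK2, 786-O and 786-M1A lines. *NFE2L2* followed in HK2 and 786-O, at 80.1 and 71.3 CPM per kb, and *NQO1* in 786-M1A, at 72.7 CPM per kb beside 65.3 for *NFE2L2*. *KEAP1*, *GSR* and *GCLM* formed the middle of the order with levels between 20.6 and 40.9 CPM per kb over the lines. In HK2, *GSR* at 32.1 ± 1.29 and *KEAP1* at 32.0 ± 0.648 CPM per kb did not differ beyond their spread (SD, n = 3). In 786-O, *KEAP1* at 40.8 stood above *GSR* at 20.8 CPM per kb. *SRXN1*, *HMOX1* and *GCLC* were lower, between 8.42 and 15.5 CPM per kb, and *OSGIN1* was the lowest in every line, at 3.80, 4.84 and 6.77 CPM per kb. The order depended on the length used. Divided by the length of all its annotated exons, an alternative added after the data were seen, *NFE2L2* ranked 7 of 10 in every line, while *TXNRD1* kept rank 1 and *OSGIN1* rank 10. By that length *GSR* and *KEAP1* were also set apart in HK2, at 27.1 and 23.0 CPM per kb.

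Around the 10 genes, 104 further genes of the pathway were listed, of which 103 were in the table and 89 were tested. In 786-O against HK2, 34 of the 89 (38.2%) were higher and 47 (52.8%) lower. In 786-M1A against HK2, 38 (42.7%) were higher and 42 (47.2%) lower, and in 786-M1A against 786-O, 30 (33.7%) were higher and 26 (29.2%) lower. These shares stand beside the shares of all genes given above, of 41.6% and 42.6%, 41.6% and 43.3%, and 27.9% and 28%. Among the 89, called differences of at least 2-fold numbered 7 higher and 9 lower in 786-O against HK2, 5 and 14 in 786-M1A against HK2, and 1 and 3 between the cancer lines. Of all genes tested, 9.18% were higher and 13.1% lower by that size in the first comparison. The shares were 10.4% and 15% in the second, and 2.03% and 4.55% between the cancer lines.

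**Figure D4:**
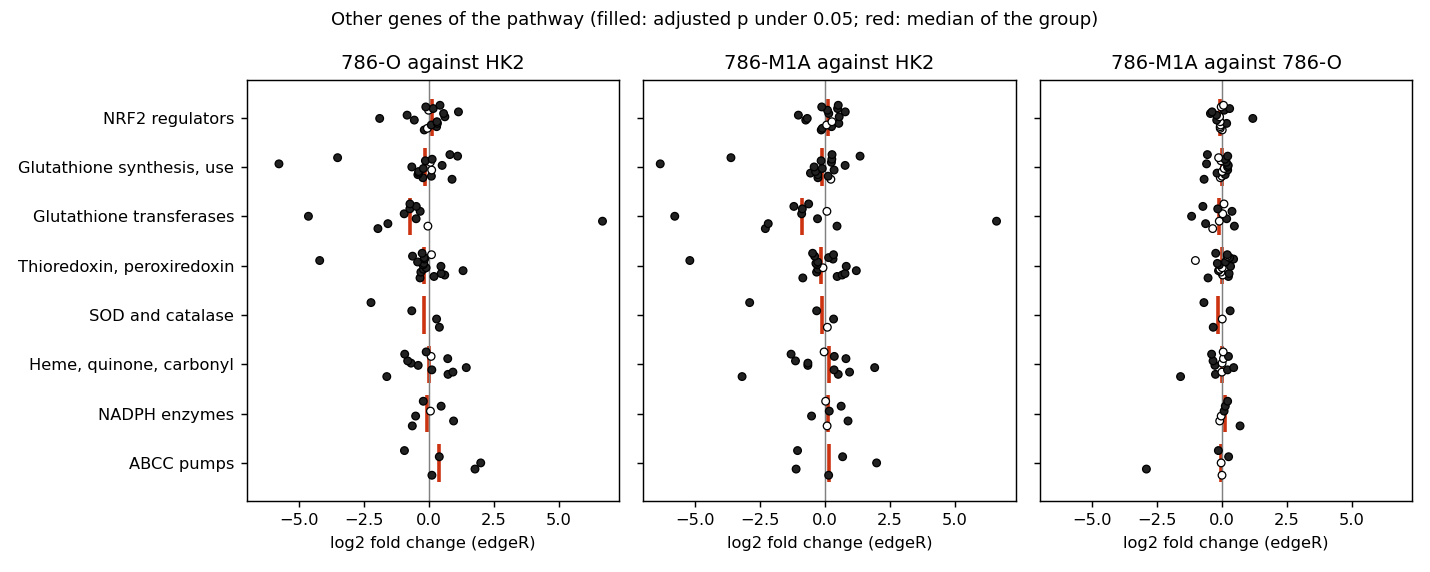
Log2 fold change from edgeR of the 89 further pathway genes tested, in 8 groups and 3 comparisons, with filled points for an adjusted p under 0.05 and a red line at the median of each group. The median of the glutathione transferases was -0.72 and -0.88 against HK2, and the point far to the right in that group is *GSTM4*, which had 2 to 4 counts in the HK2 libraries.

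Of 16 regulators of NRF2 tested, 9 were higher and 5 lower in 786-O than in HK2, and 8 were higher and 6 lower in 786-M1A. Over all genes tested, 41.6% were called higher and 42.6% lower in 786-O, and 41.6% and 43.3% in 786-M1A. The counts of the groups that follow stand beside the same shares, and no group was tested as a set. The small MAF partners of NRF2 moved in different directions. *MAFF* had means of 17.9 ± 0.631, 4.84 ± 0.404 and 11.1 ± 0.731 CPM in the HK2, 786-O and 786-M1A lines (SD, n = 3 each), with log2 fold changes against HK2 of -1.89 for 786-O and -0.69 for 786-M1A (edgeR adjusted p = 9.95e-16 and 5.08e-09). It was 2.29-fold higher in 786-M1A than in 786-O (edgeR adjusted p = 6.20e-11). *MAFK* was lower in both cancer lines, at log2 fold changes of -0.83 and -1.04 (edgeR adjusted p = 1.87e-11 and 6.17e-13), and *MAFG* was higher, at 0.62 and 0.54 (edgeR adjusted p = 1.13e-11 and 1.41e-10). The related factors *NFE2L1* and *NFE2L3* were higher in 786-O than in HK2, by 0.57 and 1.14 (edgeR adjusted p = 9.23e-13 and 1.53e-16), and lower in the metastatic than in the parental cancer line, at -0.44 and -0.37 (edgeR adjusted p = 5.20e-10 and 8.34e-08). *GSK3B*, a kinase that marks NRF2 for KEAP1-independent degradation, was lower in 786-O and 786-M1A, at -0.56 and -0.75 (edgeR adjusted p = 9.44e-12 and 4.90e-14). *CUL3*, the scaffold of the KEAP1 ligase, was 0.10 higher than in HK2 in 786-O (edgeR adjusted p = 0.0377), while its log2 fold change in 786-M1A was 0.05 (edgeR adjusted p = 0.250).

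In glutathione synthesis and use, 6 of 17 genes tested were higher and 9 lower in 786-O than in HK2, and 7 and 9 in 786-M1A, with medians of -0.13 and -0.11. *GPX3*, the secreted glutathione peroxidase, ranged from 110.0 to 115 CPM in HK2, but only from 1.91 to 2.19 CPM in 786-O and from 1.27 to 1.45 CPM in 786-M1A. It was lower by 54.5-fold in 786-O and by 81.9-fold in 786-M1A (edgeR adjusted p = 1.33e-25 and 1.24e-25). *OPLAH*, which returns 5-oxoproline to glutamate, was lower by 11.4-fold and 12.4-fold (edgeR adjusted p = 1.08e-16 and 1.09e-16). *SLC3A2*, the chain shared by the cystine and large neutral amino acid exchangers, was higher by 2.16-fold and 2.53-fold (edgeR adjusted p = 1.25e-16 and 3.82e-18).

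Among glutathione transferases, which couple glutathione to electrophiles, 9 of 11 tested were lower and 1 higher in 786-O than in HK2, and 8 were lower and 2 higher in 786-M1A. Over all genes tested, 42.6% were called lower and 41.6% higher in 786-O, and 43.3% and 41.6% in 786-M1A. The group was not tested as a set. *GSTO2* was lower at log2 fold changes of -4.63 and -5.80 and *GSTA4* at -1.96 and -2.31 (edgeR adjusted p = 1.57e-17, 6.86e-18, 1.20e-11 and 2.22e-12, in that order). A library held 13 to 20 counts of *GSTO2* in 786-O and 4 to 9 in 786-M1A, so the size of its fall is uncertain. *GSTM4* averaged 8.21 ± 0.766 CPM in 786-O, 7.72 ± 1.11 CPM in 786-M1A (SD, n = 3 each), against 2 to 4 counts in a library of HK2. It belongs to a cluster of near-identical genes that can share reads, so its level is uncertain. *GSTK1*, the mitochondrial and peroxisomal transferase, was 1.40-fold higher in 786-M1A than in its parent 786-O (edgeR adjusted p = 2.10e-09).

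In the thioredoxin group, 5 of 18 genes were higher and 12 lower in 786-O than in HK2, and 8 and 9 in 786-M1A, where *TXNRD1* itself is not counted. The shares over all genes tested were again 41.6% higher and 42.6% lower in 786-O, and 41.6% and 43.3% in 786-M1A. *TXN*, the substrate of *TXNRD1*, had means of 326 ± 16.2, 292 ± 9.21 and 401 ± 6.11 CPM in the HK2, 786-O and 786-M1A lines (SD, n = 3 each), and rose by 0.46 on the log2 scale from 786-O to 786-M1A (edgeR adjusted p = 1.99e-09). *PRDX2*, a peroxiredoxin, was higher than in HK2 by 2.50-fold in 786-O and 2.29-fold in 786-M1A (edgeR adjusted p = 3.02e-17 and 1.58e-16). *SESN3*, a sestrin, had 132 to 159 counts in the HK2 libraries, 6 to 10 in 786-O and 2 to 5 in 786-M1A. Of the 3 superoxide dismutases and catalase, 2 were higher and 2 lower in 786-O than in HK2, and 1 and 2 in 786-M1A. The cytosolic *SOD1* was higher by 0.30 and 0.32 on the log2 scale (edgeR adjusted p = 1.44e-07 and 5.54e-08), and *CAT*, which encodes catalase, by 0.41 in 786-O (edgeR adjusted p = 7.64e-08), with 0.08 in 786-M1A (edgeR adjusted p = 0.136). The mitochondrial *SOD2* was lower, at -0.65 and -0.33 (edgeR adjusted p = 9.46e-12 and 4.97e-07), and the extracellular *SOD3* was lower by 4.67-fold and 7.52-fold (edgeR adjusted p = 1.59e-16 and 7.30e-18).

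Among the genes of heme, quinone and carbonyl metabolism, 5 of 12 tested were higher and 6 lower in 786-O than in HK2, and 6 and 5 in 786-M1A. *CBR3*, a carbonyl reductase, was at 3.30, 9.01 and 12.4 CPM in HK2, 786-O and 786-M1A and higher by 1.44 and 1.90 on the log2 scale against HK2 (edgeR adjusted p = 1.90e-12 and 6.86e-15). *BLVRB*, a biliverdin reductase, was higher by 0.93 and 0.94 (edgeR adjusted p = 8.05e-11 and 7.63e-11). *PTGR1*, a reductase of electrophilic lipids, was lower, at -0.93 and -1.32 (edgeR adjusted p = 3.33e-14 and 9.49e-17). *AKR1C3* was lower as well, at -1.62 and -3.20 (edgeR adjusted p = 1.16e-12 and 3.08e-16), and its near-identical neighbours can share its reads.

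NADPH feeds *NQO1*, *GSR* and *TXNRD1*. Of 6 NADPH enzymes tested, 2 were higher and 3 lower in 786-O than in HK2, and 3 and 1 in 786-M1A. *IDH1*, an isocitrate dehydrogenase that makes NADPH, was higher in both cancer lines than in HK2, by 0.96 and 0.88 (edgeR adjusted p = 2.39e-15 and 1.04e-14). Of the 5 export pumps, 4 were higher and 1 lower in 786-O than in HK2, and 3 and 2 in 786-M1A. *ABCC3* was higher by 4.0-fold and 3.94-fold (edgeR adjusted p = 6.34e-19 and 7.52e-19), and *ABCC5* was lower by 1.91-fold and 2.10-fold (edgeR adjusted p = 1.09e-13 and 1.29e-14). *ABCC2* had means of 1.85, 6.36 and 0.85 CPM in the HK2, 786-O and 786-M1A lines, a fall by 2.90 on the log2 scale between the cancer lines (edgeR adjusted p = 1.23e-13).

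The genes whose levels followed each of the 10 most closely over the 9 libraries were found by the root mean square difference of centred log2 CPM among 12694 other genes tested. The 3 nearest were *PPP1CC*, *CDC25A* and *SRP9* for *NFE2L2* (from 0.018), *MRPL38*, *PCBP1* and *RRAD* for *KEAP1* (from 0.031) and *UGCG*, *LRIF1* and *CEP162* for *TXNRD1* (from 0.040). They were *CDK1*, *ENY2* and *CDR2* for *NQO1*, *CASK*, *ATG7* and *WSCD1* for *HMOX1*, and *PSMB8-AS1*, *TRAF2* and *ASMTL* for *OSGIN1*. For the glutathione genes they were *CDC7*, *PPP2R5A* and *ERO1A* (*GCLC*), *ANKRD13C*, *NEDD1* and *UFC1* (*GCLM*), and, given here in part, *SLC25A36* and *TECPR2* (*GSR*), and for *SRXN1* they were *ZNF271P*, *TCEANC2* and *MMADHC*. None of the 10 genes was among the 3 nearest of another. The libraries of a line share a culture history, so these are likenesses of 3 lines and no more.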

How the data were processed

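The authors sequenced TruSeq Stranded mRNA libraries of replicate cultures of each line, counted reads on genes with featureCounts of the Rsubread package on GRCh38 (hg38), and deposited raw counts per NCBI gene identifier, without normalization. The annotation release and the strand setting of the counting are not given in the sources used here. The mean-count filter, log2 step, VSN and limma of the study's methods are not in the deposited counts. RefSeq symbols (GRCh38.p14) matched 27745 of 28395 identifiers. Transcript lengths and exon overlaps came from GENCODE 44.

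Counts were scaled by TMM and fitted with edgeR 4.0.16 in R 4.3.3 (robust quasi-likelihood, 1 coefficient per line, 9 libraries, genes averaging 50 counts or more). Intervals are normal intervals from the standard error. Fits were tested on simulated data. Alternatives were RLE and upper-quartile scaling, DESeq2 1.42.0, limma 3.58.1 on median-centred log2 counts (used in place of VSN), 2 other filters, a fit of 2 lines, a replicate block, and leaving out each library.

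The 10 genes and the lists were chosen with earlier results of these data known. Named from each list and comparison were regulators, and otherwise up to 2 called genes with the largest change each way whose libraries did not overlap. The genes with the 3 most similar profiles were named for each of the 10. A few genes that these rules would name are not reported here. A level of 3 counts was between 0.0661 and 0.0993 CPM per library, and such limits cover counting error only. In bulk RNA, fewer cells with a transcript and less of it per cell cannot be told apart.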

Additional observations from a re-analysis of the deposited data

Results flagged for a closer look

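For 5 of the 10 genes the difference from HK2 was not the same in the cancer lines, by the edgeR test of 786-M1A against 786-O in the fit of all 9 libraries. The log2 fold change against HK2 was lower in 786-M1A than in 786-O for *NFE2L2*, with a difference of -0.13 (adjusted p = 0.00476). It was higher for *NQO1* by 0.20 (adjusted p = 4.63e-04), for *HMOX1* by 0.45 (adjusted p = 4.31e-06), for *TXNRD1* by 0.25 (adjusted p = 2.97e-06) and for *OSGIN1* by 0.48 (adjusted p = 3.92e-05). All 9 pairs of a 786-M1A and a 786-O library had the direction given for each of these 5 genes. The same libraries picked these genes, so this is no further support, and the share of all genes so separated was not counted. *HMOX1* was called in opposite directions against HK2, at -0.19 in 786-O and 0.26 in 786-M1A, the former call being lost without 786-O replicate 3 and with limma. These 5 are among the 27.9% of genes tested that were higher and the 28% that were lower between the cancer lines.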

How the results depend on the processing

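The counts of called genes stayed within 1.5 times and both ratios kept their direction in every setting run. With a library left out, the genes called among the 10 numbered 7 to 8 in 786-O against HK2, 9 to 10 in 786-M1A against HK2 and 5 between the cancer lines. Of the fold changes of the 10 genes, calls were lost for *HMOX1*, *SRXN1* and *GCLM* as given beside them. Differences near 0 changed sign without being called. *NQO1* in 786-O against HK2 was -0.0046 with upper-quartile scaling and -0.0041 to 0.080 with a library left out. *KEAP1* in 786-M1A against 786-O was -0.0031 with upper-quartile scaling, -0.0086 with limma, -8.42e-05 in a fit of those lines alone and -0.037 to 0.044 with a library left out. The left-out ranges between the cancer lines were -0.00087 to 0.051 for *GCLC*, -0.035 to 0.016 for *SRXN1* and -0.033 to 0.014 for *GSR*. The cause was not tested.

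With the replicate block, 8, 10 and 5 of the 10 genes and 79, 79 and 56 of the 89 pathway genes were called in the 3 comparisons, and no call of the 10 genes changed. The deviations of libraries with the same number correlated at -0.057 to -0.029 between 786-O and HK2 and -0.167 to 0.038 between 786-M1A and HK2. For the cancer lines they correlated at 0.074 to 0.215, each library best with its own number, against -0.150 to 0.048 for different numbers. Not every pair was over 0.1, so the numbers were not taken as pairs. *OSGIN1*, at 230 to 534 counts in a library, and *HMOX1*, at 593 to 934, varied by up to 12.2% and 10.6% (CV) within a line. With 1 line per condition and 3 cultures, an exact permutation test of a single value cannot go below p = 0.1.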
